A study of Arabidopsis thaliana with 6 samples.

Results

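The vascular patterning regulators OPS, LHW, MOL1, AT1G08590 and AT5G02460 were taken by name from the genes whose probe sets are annotated to exactly 1 gene. They are 5 of 16550 such genes, and 34 genes of the pathways around them, the 5 included, were measured under a name. The samples were 6 arrays of Arabidopsis thaliana protoplasts from 6-day-old seedlings that carry SEOR1pro::SEOR1-YFP, a YFP fusion of a sieve element protein driven by its own promoter. The cotyledons were cultured for 72 hours with bikinin (10 µM), which blocks GSK3-like kinases, with the auxin 2,4-D (1.25 mg/L) and with the cytokinin kinetin (0.25 mg/L). YFP-positive protoplasts, labelled phloem, were sorted from YFP-negative ones, with 3 arrays each, numbered 1 to 3. Both groups therefore carry the transgene and received the same hormones and bikinin, and no uninduced group was analysed here. "YFP-positive" means protoplasts in which the SEOR1 promoter was active enough to be sorted, and the label says nothing of cells in earlier phloem stages.

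The 5 genes act at different points of vascular development. OPS (OCTOPUS, AT3G09070) is a polar membrane protein of the protophloem lineage that promotes sieve element differentiation and recruits the GSK3-like kinase BIN2 to the membrane, which opposes BIN2 in the nucleus. LHW (LONESOME HIGHWAY, AT2G27230) is a bHLH transcription factor that pairs with TMO5 and drives cytokinin synthesis and the divisions that widen the vascular bundle. MOL1 (MORE LATERAL GROWTH1, AT5G51350) is a leucine-rich repeat receptor kinase known to restrain the cambium. AT1G08590 (PXL1) is a receptor kinase related to PXY, the receptor that reads the peptides of CLE41 and CLE44 and keeps cambium cells dividing. AT5G02460 (PEAR2) is a DOF transcription factor of the group that acts from early phloem cells of the root and promotes divisions of the neighbouring procambium.

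The mean log2 value of PEAR2 was 8.09 ± 0.35 (SD, n = 3) in the YFP-positive group, against 6.39 ± 1.65 (SD, n = 3) in the YFP-negative group. OPS and LHW were read above the median of every array in both populations, with differences of 0.73 and 0.55 that were smaller than their spread between arrays. MOL1 and PXL1 were read below the median of every array in both populations. None of the 5 genes passed limma at an adjusted p under 0.05, with or without the replicate number as a block. Among all 16550 genes 1.08% passed without the block and 0.544% with it. Each of the 5 had a pooled difference above 0, which held for 44.6% of all genes. At an unadjusted p under 0.05, 0 of the 5 passed in limma without the block, against 7.96% of all genes, and 1, OPS, passed with it, against 13.8%.

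**Figure D1:**
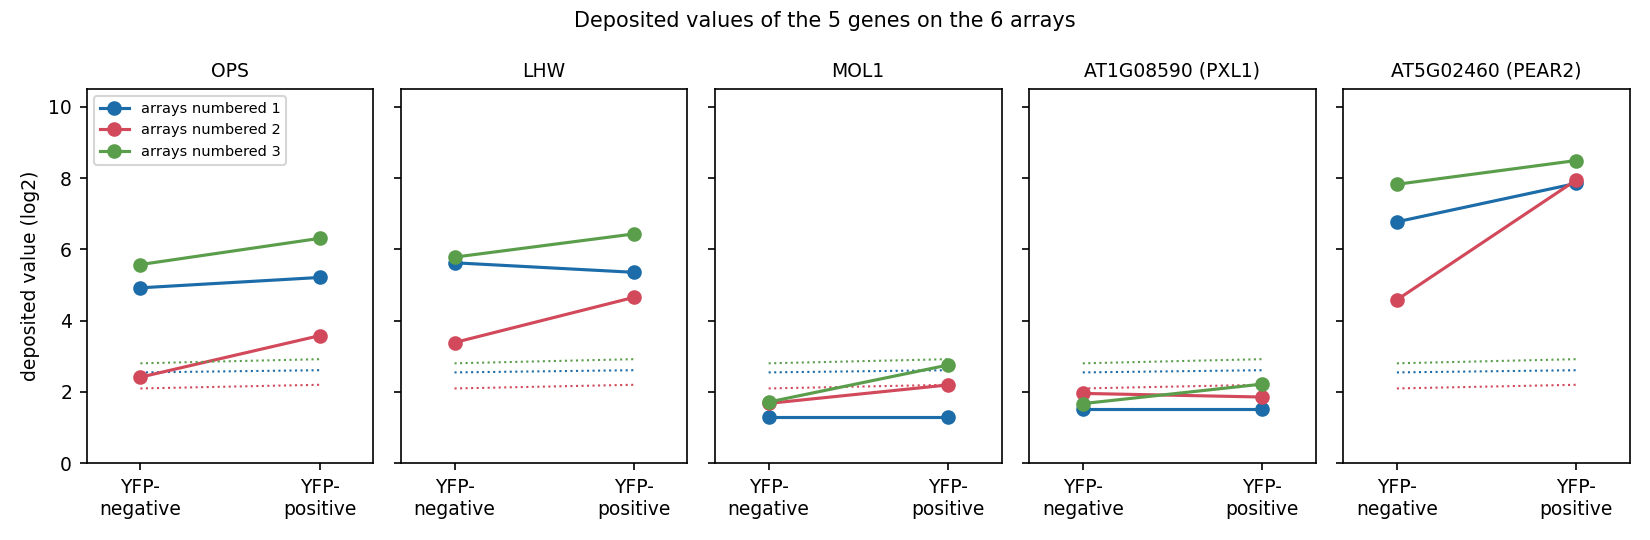
Deposited log2 values (vertical axis) of OPS, LHW, MOL1, PXL1 and PEAR2 in YFP-negative and YFP-positive cells, with lines joining arrays of the same number and dotted lines for the median of all probe sets on each array. OPS, LHW and PEAR2 lie above the dotted lines, MOL1 and PXL1 lie below them, and the arrays numbered 2 are lowest for OPS and LHW in both populations.

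Some properties of the arrays bear on every value. All 38408 probe sets have a value on each array, and no detection calls or background levels were used here, so a value below the array median is called dim and does not show absence. How arrays of different numbers were put on 1 scale is not given in the sources used here. Their deposited distributions were not equal. Sorted log2 values differed on average by 0.02 to 0.08 between same-numbered arrays and by 0.16 to 0.55 between arrays of different numbers. Array medians ran from 2.1 on YFP-negative array 2 to 2.92 on YFP-positive array 3, so each gene is also given by the share of probe sets below it on the same array. Many deposited values are shared by several probe sets of 1 array. On the arrays numbered 1, 64.5% of YFP-negative and 62.9% of YFP-positive probe sets hold a value that another probe set also holds, against 36.8% to 40.7% on the other 4 arrays. In sorted bulk samples, fewer cells of a type and less RNA per cell cannot be told apart. The labels do not state whether arrays of a group stem from separate cultures, so every p-value and SE reflects the spread among these arrays alone, which could be technical.

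OPS, the membrane protein of the phloem lineage, was read at 4.92, 2.41 and 5.57 on YFP-negative arrays 1, 2 and 3. On YFP-positive arrays 1, 2 and 3 it was read at 5.21, 3.58 and 6.31. The YFP-positive array was the higher one in each pair, the arrays numbered 2 were the lowest of their group, and the 2 groups overlapped. The pair differences were 0.29, 1.16 and 0.73 on the log2 scale, or 1.22-fold, 2.24-fold and 1.66-fold. A positive difference in all 3 pairs was found in 2 of the 5 genes, OPS and PEAR2, and in 12.5% of all genes. The pooled difference of 0.73 had an SE of 1.03 and a 95% interval of -1.77 to 3.23, with an adjusted p of 1 from limma. With the replicate block the SE fell to 0.23 and the interval ran from 0.08 to 1.38, and the adjusted p was 0.307 from limma.

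The gap between array numbers was larger for OPS than for most genes. The mean of both arrays was 5.07 for number 1, 3.0 for number 2 and 5.94 for number 3, a range of 2.95, and 2.98% of all genes had a range at least as wide. The median range over all genes was 0.85. Rescaling the arrays narrowed it without closing it, to 2.01 with quantile normalization and to 2.23 with median centring. Within each array, OPS stood above 66.9%, 55.0% and 71.8% of probe sets in YFP-negative cells and above 69.2%, 64.3% and 77.5% in YFP-positive cells. The order of the arrays is thus the same on this scale, and the YFP-positive array again was higher in each pair. The value on YFP-negative array 1 was shared by 45 probe sets, so the small difference in pair 1 rests on a value that other probe sets also hold. Without YFP-negative replicate 2 the pooled difference turned to -0.21, which leaves YFP-positive array 2 without its partner, and without both arrays numbered 2 it was 0.51.

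LHW, the bHLH factor, was read at 5.62, 3.39 and 5.78 on YFP-negative arrays 1, 2 and 3. On YFP-positive arrays 1, 2 and 3 it was read at 5.36, 4.65 and 6.43. The YFP-positive array was lower in pair 1 and higher in pairs 2 and 3, and the groups overlapped. The pair differences were -0.27, 1.27 and 0.65, and 84.3%, 8.28% and 17.6% of all genes had a difference at least as high in pairs 1, 2 and 3. Its pooled difference was 0.55 (SE 0.78, 95% interval -1.35 to 2.45), with an adjusted p of 1 from limma. With the replicate block the interval was -0.47 to 1.57 and the adjusted p was 0.557. As for OPS, the arrays numbered 2 were lowest in both groups, which held for 38.8% of all genes. The range between number means was 2.09 as deposited and 1.07 with quantile normalization. LHW stood above 72.0%, 64.3% and 73.5% of probe sets on the YFP-negative arrays and above 70.3%, 72.1% and 78.5% on the YFP-positive arrays. On this scale YFP-positive array 2 no longer was the lowest of its group. Its value on YFP-negative array 1 was shared by 24 probe sets. Without YFP-negative replicate 2 the pooled difference turned to -0.22, and without both arrays numbered 2 it was 0.19.

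**Figure D2:**
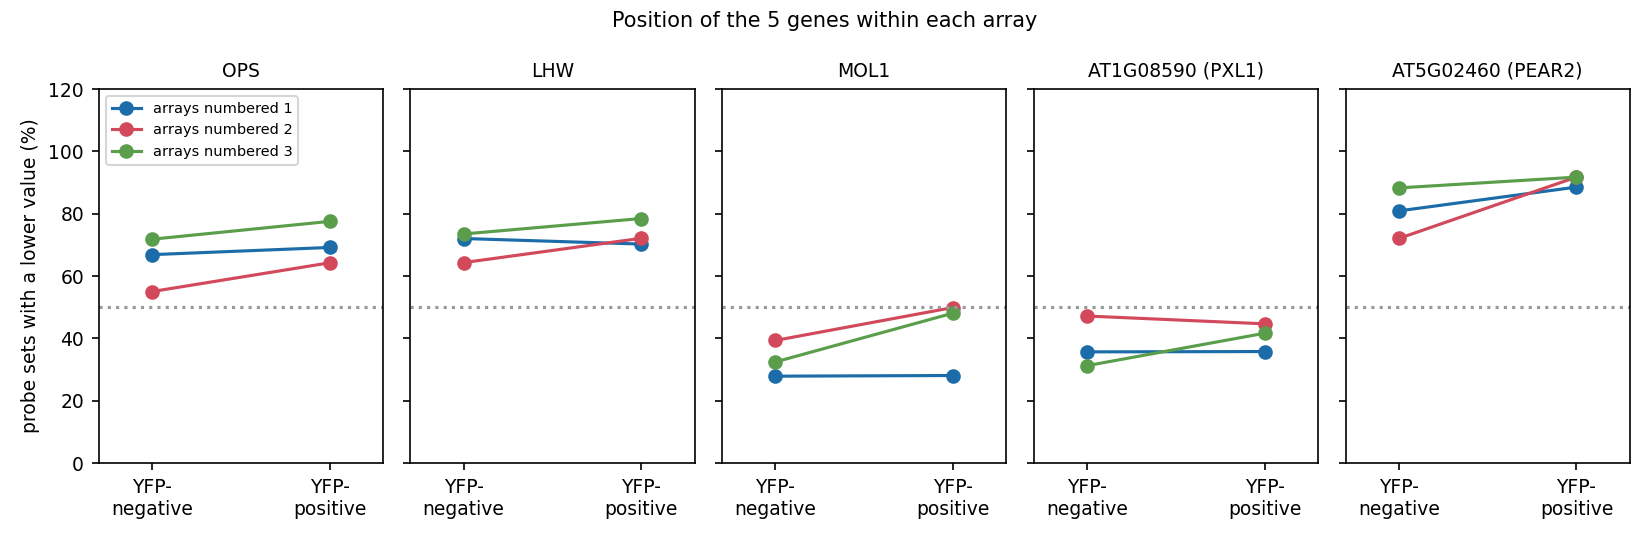
Share of all probe sets on an array that lie below each gene (vertical axis, percent), by population, with lines joining arrays of the same number and a dotted line at the array median. PEAR2 stood above 72.1% to 91.8% of probe sets, OPS and LHW above 55.0% to 78.5%, and MOL1 and PXL1 above 27.9% to 49.9%.

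PEAR2, the DOF factor, had the highest pooled difference of the 5 genes. It was read at 6.77, 4.58 and 7.83 on YFP-negative arrays 1, 2 and 3. On YFP-positive arrays 1, 2 and 3 it was read at 7.85, 7.94 and 8.49. The groups did not overlap, which among the 5 genes held for PEAR2 alone and among all genes, in the same direction, for 4.96%. The gap between the lowest YFP-positive and the highest YFP-negative value was 0.02. The YFP-negative values were spread 4.76 times as widely as the YFP-positive ones by SD. The pair differences were 1.08, 3.36 and 0.67, or 2.11-fold, 10.3-fold and 1.59-fold. Of all genes, 4.94%, 1.37% and 17.3% had a difference at least as high in pairs 1, 2 and 3.

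The pooled difference of PEAR2 was 1.70 (SE 0.82, 95% interval -0.28 to 3.68), with an adjusted p of 0.796 from limma and of 0.394 with the replicate block. An exact permutation test, which ignored the pairing by number, gave a two-sided p of 0.1, the smallest that 3 arrays against 3 allow. Groups without overlap always give this value, so the test adds nothing to the lack of overlap. For OPS, LHW, MOL1 and PXL1 the same test gave 0.6, 0.7, 0.4 and 0.7. The size of the difference depended on single YFP-negative arrays. Without YFP-negative array 2 the difference was 0.80, and without YFP-negative array 3 it was 2.42. Without both arrays numbered 2 it was 0.87, again higher on the YFP-positive array of both remaining pairs. On the scale of positions, PEAR2 moved from above 80.9% to above 88.5% of probe sets in pair 1, from 72.1% to 91.8% in pair 2 and from 88.3% to 91.7% in pair 3. The 3 YFP-positive arrays thus lay close together, and the YFP-negative arrays spread below them. The pair 2 difference was 3.01 after quantile normalization and 3.26 after median centring. Against OPS, measured on the same arrays, the pair difference of PEAR2 was larger by 0.79 in pair 1 and by 2.19 in pair 2, and smaller by 0.07 in pair 3.

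**Figure D3:**
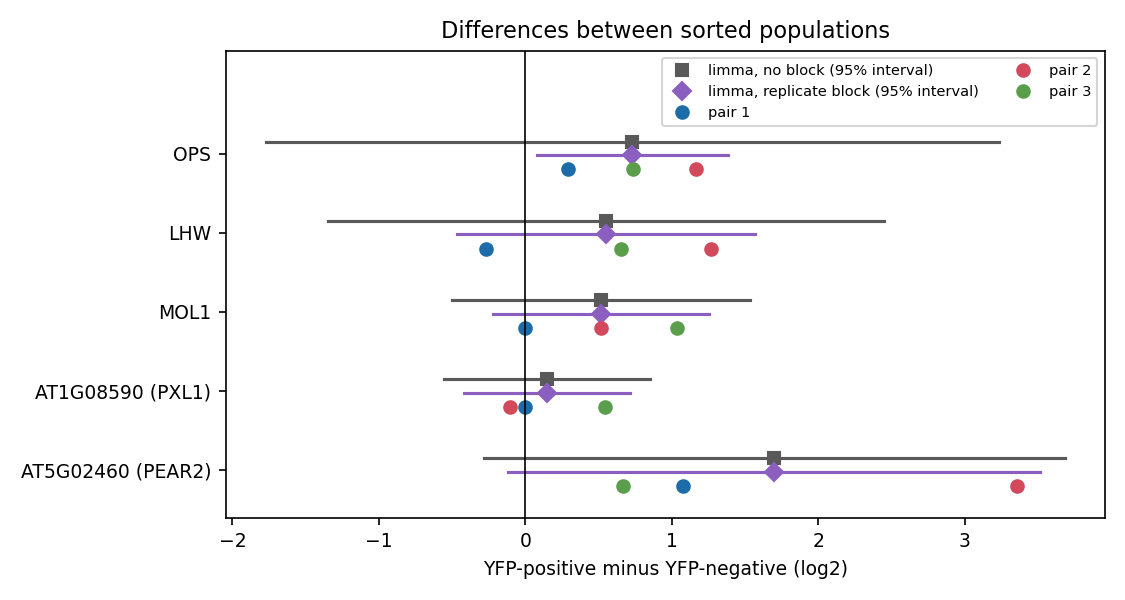
YFP-positive minus YFP-negative differences (horizontal axis, log2) of the 5 genes. Squares and diamonds are limma estimates with 95% intervals without and with the replicate block, and dots are the 3 pair differences. The interval of OPS with the block, 0.08 to 1.38, lies above 0, as no other interval does, and the pair 2 dot of PEAR2 at 3.36 lies far from its other dots.

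MOL1, the receptor kinase that restrains the cambium, was dim throughout. It was read at 1.29, 1.68 and 1.72 on YFP-negative arrays 1, 2 and 3. On YFP-positive arrays 1, 2 and 3 it was read at 1.29, 2.19 and 2.75. The pair differences were 0, 0.52 and 1.04, so YFP-positive arrays 2 and 3 were the highest of the 6 and the arrays numbered 1 were equal. That equality is no measurement of MOL1 alone, since the same value was held by 696 probe sets on YFP-negative array 1 and by 494 on YFP-positive array 1. MOL1 stood above 27.9%, 39.4% and 32.5% of probe sets on the YFP-negative arrays and above 28.1%, 49.9% and 48.1% on the YFP-positive arrays. YFP-positive array 2 was thus just below the array median, by 0.01 on the log2 scale. The pooled difference of 0.52 (SE 0.42, 95% interval -0.50 to 1.54) stood at adjusted p = 1 in limma and 0.49 under the replicate block. Its direction was above 0 in each of 16 alternatives. Several of these, such as the replicate block and the intensity trend, keep the estimate of 0.52 by construction and do not test its direction. No fold is given for a gene this dim.

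PXL1, the relative of PXY, had the smallest difference of the 5. It was read at 1.51, 1.96 and 1.67 on YFP-negative arrays 1, 2 and 3. On YFP-positive arrays 1, 2 and 3 it was read at 1.51, 1.86 and 2.22. The arrays numbered 1 were equal, the YFP-positive array was slightly lower in pair 2, and it was higher in pair 3, with differences of 0, -0.10 and 0.55. The value on the arrays numbered 1 was held by 57 and 60 probe sets there, and equal values on both arrays of number 1, as in MOL1 and PXL1, were found in 47.8% of all genes. The pooled difference was 0.15 (SE 0.29, 95% interval -0.56 to 0.85), at adjusted p = 1 in limma and 0.748 under the replicate block. It turned to -0.030 without YFP-positive replicate 3. A second probe set was annotated to PXL1, and to none of the other 4 genes. It was read at 1.73, 1.25 and 1.62 in YFP-negative and at 1.73, 1.25 and 2.33 in YFP-positive cells. Both probe sets were higher in pair 3 and equal in pair 1, and they disagreed in pair 2, where the second was also equal. The equal values of the second were not its own alone. AT5G58930 held the same value on both arrays numbered 1, and AT2G31700 on both arrays numbered 2. Every value under the array median, as in MOL1 and PXL1, was found in 36.6% of all genes, and every value above it, as in OPS, LHW and PEAR2, in 39.6%.

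**Figure D4:**
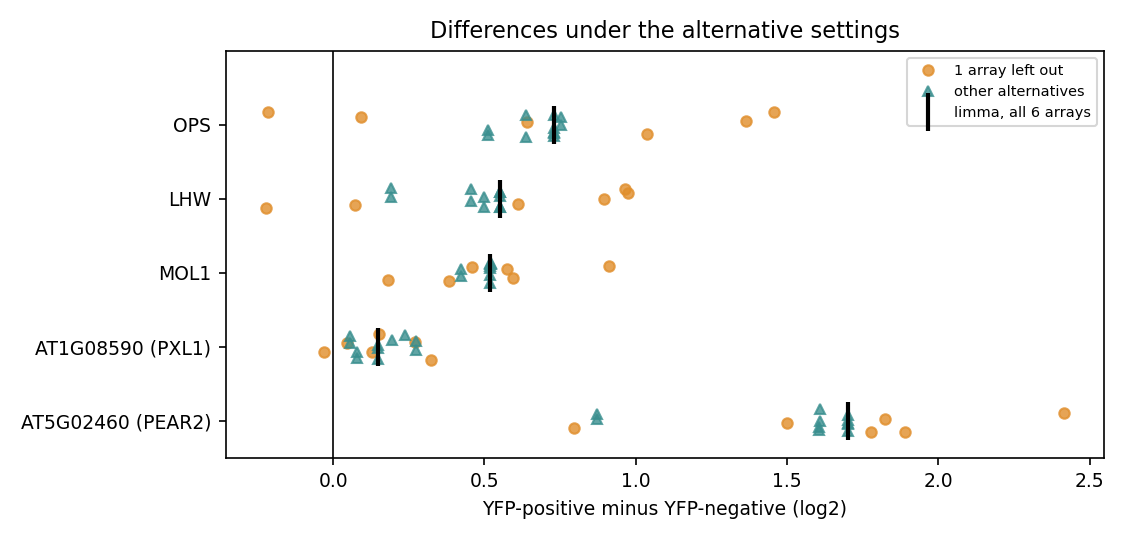
Pooled differences (horizontal axis, log2) of the 5 genes with all 6 arrays (black bar) and under the alternative settings, with circles for 1 array left out and triangles for the others; vertical scatter within a gene has no meaning. PEAR2 ran from 0.80 to 2.42, while OPS, LHW and PXL1 each crossed 0 when 1 array was left out.

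Genes with the most similar profile were sought by the root mean square difference of log2 values over the 6 arrays, after each gene was centred on its own mean, as a description with no test. OPS and LHW were close to each other, at 0.40, and MOL1 and PXL1 at 0.31, while PEAR2 stood 0.74 from LHW and 0.83 from OPS. For OPS the closest other genes were AT5G56140 at 0.15 and AT3G12150 at 0.20. The values of AT5G56140 were 6.01, 3.69 and 6.85 in YFP-negative and 6.68, 4.65 and 7.73 in YFP-positive cells, lowest on the arrays numbered 2 as in OPS. LHW was closest to AT4G02450 and AT2G38420, both at 0.12. PEAR2 was closest to AT5G47920 at 0.20 and AT2G37530 at 0.28, whose pair 2 differences were 3.17 and 2.97. On YFP-negative array 1 both genes held the same value, 4.68, which AT5G22340 also held, so their likeness rests in part on a shared value. Few profiles resembled that of PEAR2, since 33 genes lay within 0.5 of it, against 284 for OPS and 816 for LHW. The profiles of MOL1 and PXL1 had 3243 and 7492 genes within 0.5, and the nearest to them, AT1G73130 for MOL1 and AT5G22340 for PXL1, at 0.04 each, single out no relation.

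Around the 5 genes, 110 genes of their pathways and families were listed, of which 29 beyond the 5 were measured under a name. None of the 29 passed limma over all genes, and with the replicate block 1 passed. At an unadjusted p under 0.05 there were 3 of the 29, where 7.96% of all genes stood. Their median difference was 0.09, against -0.04 for all genes. Of the 29, 7 were above 0 in all 3 pairs, as were 12.5% of all genes. Another 3 were below 0 in all 3 pairs, for which no share of all genes was computed. On every array 10 of the 29 were dim, as were 36.6% of all genes.

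Of the OPS pathway and early sieve element list, 8 of 27 genes were measured, OPS among them, with a median difference of 0.39. CLE45, a peptide of the protophloem whose action opposes sieve element differentiation, was read at 2.20, 1.44 and 2.34 in YFP-negative and at 4.40, 3.47 and 4.56 in YFP-positive cells. Its groups did not overlap, as for 4.96% of all genes in the same direction. CLE45 was the 1 listed gene that passed with the block (adjusted p = 0.0444, or 0.0951 without it, from limma), although each of its YFP-negative values was dim. In limma without the block it also passed with quantile normalization (0.0205) and median centring (0.0193), where 1.51% and 2.32% of all genes passed, but not with an intensity trend (0.253). Among 4 loci listed as relatives of OPS, AT5G01170 had a difference of 0.74 with pair differences of 0, 0.61 and 1.59. That 0 comes from equal values on both arrays numbered 1, found in 47.8% of all genes. AT2G38070 had a difference of 0.42, and AT5G58930 and AT3G46990 had differences of -0.44 and -0.09. None of the 4 passed, and each was dim on 2 to 6 arrays, while OPS was dim on none.

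Of the module around LHW, 5 of 19 genes were measured, LHW among them, with 0 called in limma with or without the block and a median difference of -0.08. TMO5, the partner of LHW, and the LOG genes of cytokinin synthesis were not analysed here. AT3G56770 was read at 6.77, 2.89 and 6.14 in YFP-negative and at 6.77, 5.07 and 7.33 in YFP-positive cells. Like LHW it was lowest on the arrays numbered 2 and had its widest difference, 2.19, in pair 2; its adjusted p was 1 from limma. AT2G41130 and AT5G09460 were lower on the YFP-positive array in all 3 pairs, with pooled differences of -0.42 and -0.27 that did not pass.

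Of the cambium signalling list, 6 of 17 genes were measured, MOL1 and PXL1 among them, with a median of 0.05. The 2 measured ligand genes had differences of opposite sign. CLE41 was read at 7.62, 7.12 and 8.06 in YFP-negative and at 9.09, 9.54 and 9.96 in YFP-positive cells. CLE44 was read at 6.28, 7.99 and 6.13 in YFP-negative and at 5.53, 5.78 and 5.56 in YFP-positive cells. The groups overlapped for neither gene. Among all genes, 4.96% were higher in YFP-positive cells without overlap, and no share was computed for the lower direction. The CLE41 groups differed by 1.93 (SE 0.37), at adjusted p = 0.091 in limma and 0.0818 under the replicate block. It passed with quantile normalization (0.037) and median centring (0.0434), where 1.51% and 2.32% of all genes passed. CLE44 had a difference of -1.17 and did not pass. PXL2, a second relative of PXY, differed by -0.04 (SE 0.32), and PXY itself was not analysed here. PHV, a class III homeodomain-leucine zipper factor of vascular patterning, differed by -0.34.

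Of the receptor kinase subfamily that holds MOL1 and PXL1, 4 of 16 genes were measured. Of the 4, MOL1, PXL1 and IKU2 were dim on every array, as were 36.6% of all genes. IKU2, known for its role in seed size, differed by -0.29. The median of the 4 was 0.05, and 0 passed in limma in either direction.

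Of the DOF family, 14 of 36 genes were measured, PEAR2 among them, with a median difference of 0.28, and 0 passed in limma with or without the block. Positive differences in all 3 pairs were found for 4 of the 14, against 12.5% of all genes. The 4 were PEAR2, AT2G28810, AT2G28510 and AT4G24060. None of the 14 was below 0 in all 3 pairs, for which no share of all genes was computed. AT2G28810 was read at 2.99, 1.74 and 5.48 in YFP-negative and at 6.01, 5.11 and 7.05 in YFP-positive cells. Its pair differences of 3.03, 3.37 and 1.58 were each larger than those of PEAR2, and its pooled difference of 2.66 (SE 1.02) stood at adjusted p = 0.55 in limma and 0.118 under the replicate block. AT2G28510 had pair differences of 0.98, 1.15 and 0.62, at adjusted p = 0.678 in limma and 0.14 under the replicate block. Of the 14, 5 were dim on every array, against 36.6% of all genes, and AT1G29160 had the lowest pooled difference, -0.67.

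**Figure D5:**
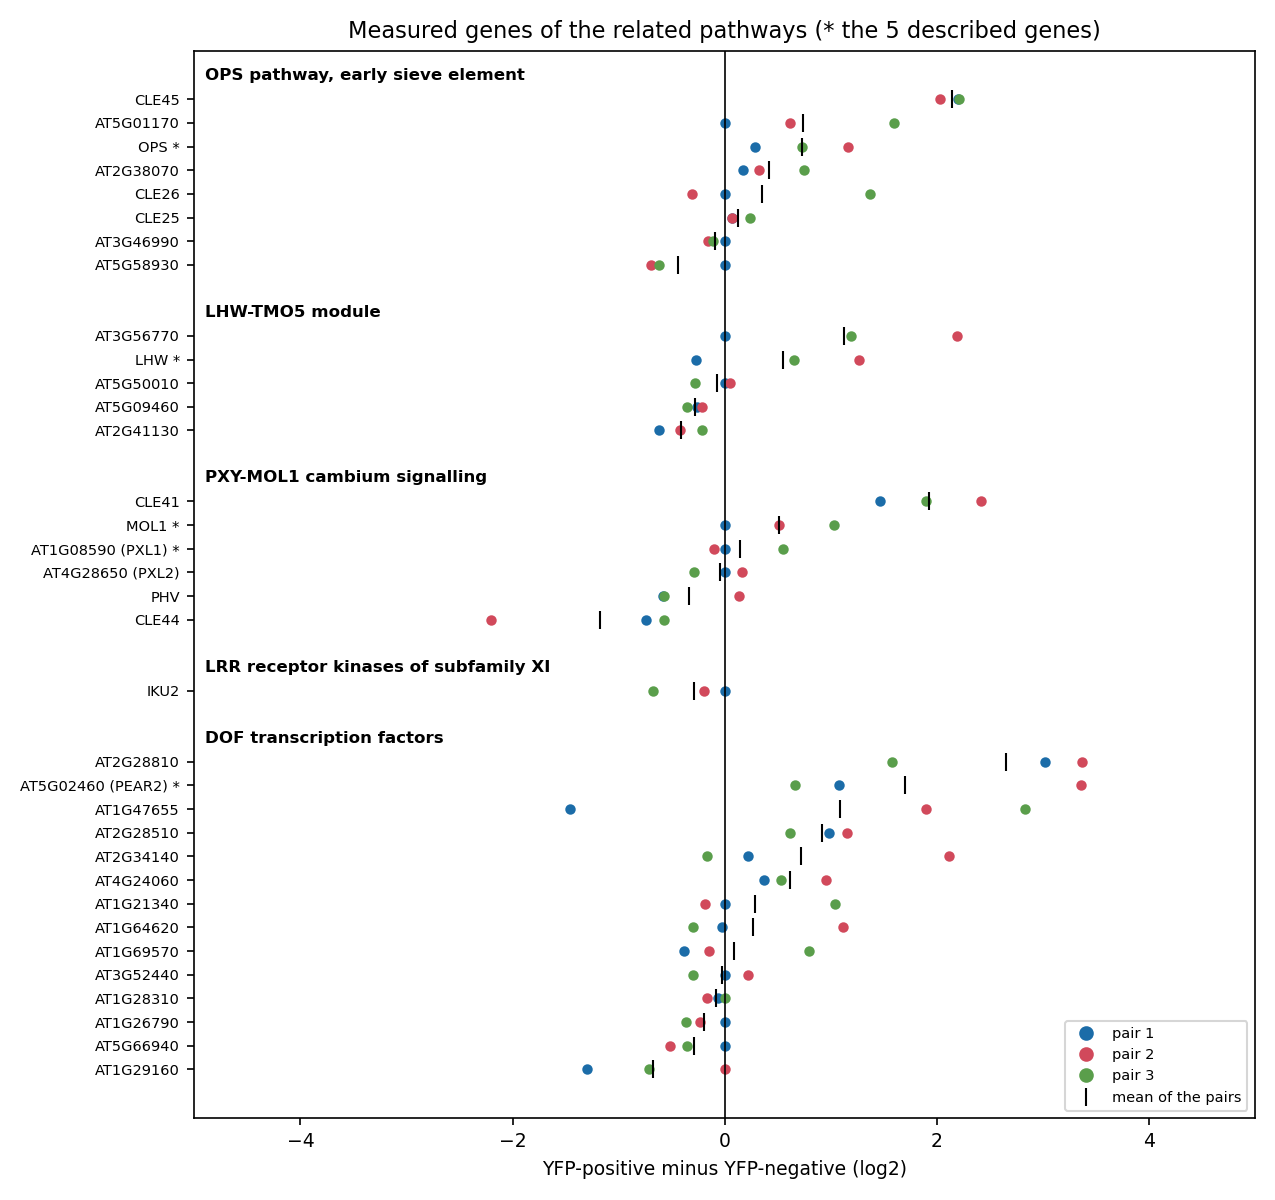
YFP-positive minus YFP-negative differences (horizontal axis, log2) of the 34 measured genes of the related pathways, each shown once under its first list, with dots for the 3 pairs and a bar for their mean. CLE45, CLE41 and AT2G28810 have all 3 dots well above 0, and CLE44 has all 3 below it.

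Markers of other cell types were checked where they were named. Of 47 listed markers 7 were measured, 0 passed limma with or without the block, and 1 of the 7 had an unadjusted p under 0.05, where 7.96% of all genes stood. None of the 6 sieve element markers was measured under a name, so the label of the YFP-positive cells was not checked by them. The 2 of 13 photosynthesis markers measured, PSBW and RCA, were lower in the YFP-positive array of every pair. Their mean log2 level was 6.70 to 7.65 in YFP-negative and 6.19 to 6.40 in YFP-positive cells, without overlap. For neither pattern was a share of all genes computed in this direction. Adjusted p-values in limma without the block were 0.502 for PSBW and 0.754 for RCA. SWEET11, the 1 of 7 companion cell and phloem parenchyma markers measured, differed by -1.25 (SE 1.62), with pair differences of 0, -0.91 and -2.84. GUT2, the 1 of 13 xylem markers, differed by -0.49 (SE 0.59), with pair differences of 0, 0.81 and -2.29. FMA, the guard cell factor with the smallest p of 3 epidermal markers, differed by -1.17 (SE 1.13), with pair differences of 0, -0.41 and -3.09. The groups overlapped for each, and SWEET11 was dim on 1 array, GUT2 on 4 and FMA on 5. Their pair 1 differences of 0 come from equal values on both arrays numbered 1, found in 47.8% of all genes. The mean level of the 3 epidermal markers ran from 1.17 to 2.89 in YFP-negative and from 1.0 to 1.59 in YFP-positive cells. Their part in the differences of the 5 genes was not tested.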

How the data were processed

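Total RNA of sorted protoplasts was amplified and biotin-labelled, per the labels' protocols, and hybridised to 1 array per sample. The authors' deposited log2 values come from RMA according to the submitters' processing notes, with no version or settings stated there. They were read as log2 from their range, -0.11 to 13.39. Of 38408 probe sets, 16722 had exactly 1 gene in the platform annotation, 759 had several and 20927 were not named here. Symbols were updated by gene ID through RefSeq (TAIR10.1), where 16411 of 16550 genes matched. Where a gene had several probe sets, the one with the highest mean was used. No coordinates are given, because no build is named for the table.

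The fits used lmFit and eBayes of limma 3.58.1 (R 4.3.3), two-sided, on all 6 arrays without a block, with Benjamini-Hochberg adjustment over 16550 genes, a threshold of 0.05 and no filter on dim genes; the fit was tested on simulated data. Replicate numbers are those of the sample titles. Across genes, the deviations of same-numbered arrays from their group means had correlations of 0.66, 0.61 and 0.49 for numbers 1, 2 and 3. Each was above 0.1, so the numbers were taken to pair the arrays and blocked values stand beside the pooled ones. Arrays of different numbers had correlations between -0.47 and -0.19. Because deviations within a group sum to 0, these are not independent of the first 3. Same-numbered arrays also held 13489, 1961 and 1860 equal values, against 0 or 1 for a YFP-negative and a YFP-positive array of different numbers. Whether the numbers mark shared material or shared processing was not tested. The number of arrays limits the precision.

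The 5 genes, the pathway and marker lists and the tests were chosen with earlier results of these data known. Named genes were the 5 members, from each pathway list the genes past the threshold and the 3 with the smallest p, from each marker list the one with the smallest p, and for each member the 2 most similar profiles; other listed genes were named after their values were seen.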

Additional observations from a re-analysis of the deposited data

How the results depend on the processing

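None of the 5 genes passed the threshold under any of 16 (MOL1) or 17 (the others) alternatives, with adjusted p-values in limma from 0.261 to 1. With 1 array left out, the difference of OPS ran from -0.21 to 1.46, that of LHW from -0.22 to 0.98, that of MOL1 from 0.18 to 0.91, that of PXL1 (AT1G08590) from -0.030 to 0.32 and that of PEAR2 (AT5G02460) from 0.80 to 2.42. The negative values came without YFP-negative replicate 2 for OPS and LHW and without YFP-positive replicate 3 for PXL1. MOL1 and PXL1 have no value where dim genes were left out. No probe set annotated to several genes names 1 of the 5, so that alternative was not run. The replicate block changed no call of the 5.

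Over all genes, 142 were higher and 37 lower. The counts were 82 and 8 with the replicate block, 265 and 119 with median centring, 244 and 94 with dim genes left out, and 242 and 65 with an intensity trend; 3 were lower without both arrays numbered 2. With 1 array left out, 37 to 151 were higher and 0 to 38 lower; the 0 came without either array of replicate 3 (464 and 404 lower genes at an unadjusted p under 0.05 in limma). Settings chosen after seeing the data gave 308 higher and 150 lower with the block and median centring, 73 lower with the block and quantile normalization, and 0 and 0 with the block on pairs 1 and 3 alone (1473 at an unadjusted p under 0.05). Median centring moved the share of higher genes among those called from 79.3% to 69.0% and the median of all genes from -0.04 to -0.13. Of the 29 listed pathway genes, 2 passed with quantile normalization or median centring, with or without the block, 1 with the block alone, 1 with an intensity trend and 0 in the other settings. The cause of these changes was not tested.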
